A study of Mus musculus with 32 samples.

Results

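The secreted Wnt ligands described here (Wnt1, Wnt2, Wnt2b, Wnt3, Wnt4, Wnt5a, Wnt6, Wnt7b, Wnt10a and Wnt11) are 10 of the 19 Wnt genes and of the 23154 genes measured in single cells of mouse embryos, and they were chosen by name. The cells came from intestine, liver, lung, skin, heart, somite and both brain regions (forebrain and hindbrain) of 7 C57BL/6J embryos, with no genetic change or treatment named in the labels, of which 3 were E9.5, 2 were E10.5 and 2 were E11.5. The labels name HiSeq 2500 for E9.5 embryos 1 and 2 and HiSeq 4000 for the remaining 5, and E9.5 embryo 2 was labelled female and the others male. Cells were analysed by organ and by the classes the study gave them, epithelial (EC, or Epi within intestine, liver, lung and skin), mesenchymal (Mes), mesoderm-derived (MC), neuronal (NC) and hematopoietic (HC).

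Wnt ligands are lipid-modified glycoproteins that act mostly on neighbouring cells. They are acylated by Porcn and carried to the cell surface by Wls, and they bind Frizzled receptors with co-receptors such as Lrp5 and Lrp6. In the canonical branch this stabilises β-catenin, which acts with TCF/LEF factors on targets such as Axin2 and Lef1, whereas ligands such as Wnt5a and Wnt11 are best known for β-catenin-independent signalling in cell polarity and movement. In the organs sampled, Wnt exchange between epithelium and mesenchyme is known for its part in skin appendage formation, lung branching and gut elongation, and Wnt1 for its part at the midbrain-hindbrain boundary and the dorsal neural tube.

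Of 1916 cells, 1805 were kept, with 20326 to 2524348 UMIs (tagged RNA molecules) per cell and a median of 306271. A level is log2(TPM/10 + 1), with TPM as deposited (the count of UMIs scaled to 1000000 per cell), and a ligand counted as expressed in a cell at a level of 1 (10 TPM) or more. Cell levels were averaged per embryo where 3 or more cells were present, and errors are SD over embryos for levels and SE for differences. Differences were tested on embryo levels with limma, and passed at a Benjamini-Hochberg adjusted p under 0.05 over all genes. In 228 kept cells, with under 100000 UMIs, a single UMI already exceeds 10 TPM. Of the kept cells, 1686 fell into 13 sets of an organ and a class or among the hematopoietic cells of the other organs. Levels are not compared between genes.

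The start regions of Wnt6, Wnt1 and Wnt11 are shown because these ligands had their highest level in skin, in hindbrain and in heart, respectively. Each line gives the 250 bases before the RefSeq transcript start (GRCm38.p6, the build of the authors' mm10), 5′ to 3′ on the strand of the gene, with capitals at CTTTG (the core of TCF/LEF motifs), GGGCGG (the GC box) or TATAAA on either strand. The Wnt6 region lies at chr1:74771642-74771891, that of Wnt1 at chr15:98789607-98789856 and that of Wnt11 at chr7:98834862-98835111, all on the + strand.
Wnt6: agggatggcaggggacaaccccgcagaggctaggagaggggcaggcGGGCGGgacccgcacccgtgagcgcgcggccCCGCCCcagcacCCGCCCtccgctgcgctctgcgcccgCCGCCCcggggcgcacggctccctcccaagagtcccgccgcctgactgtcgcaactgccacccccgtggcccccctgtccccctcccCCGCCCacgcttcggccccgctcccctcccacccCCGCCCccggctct
Wnt1: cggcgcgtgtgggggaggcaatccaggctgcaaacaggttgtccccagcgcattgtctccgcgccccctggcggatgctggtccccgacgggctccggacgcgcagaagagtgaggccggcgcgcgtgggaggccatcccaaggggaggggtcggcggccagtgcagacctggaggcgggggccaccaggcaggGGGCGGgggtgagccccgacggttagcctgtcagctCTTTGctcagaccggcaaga
Wnt11: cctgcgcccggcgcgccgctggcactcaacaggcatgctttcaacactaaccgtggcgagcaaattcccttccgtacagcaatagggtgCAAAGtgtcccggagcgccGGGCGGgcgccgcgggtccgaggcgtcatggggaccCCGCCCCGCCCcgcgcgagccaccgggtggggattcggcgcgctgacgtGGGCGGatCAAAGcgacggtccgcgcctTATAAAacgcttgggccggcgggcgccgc
The Wnt6 region held 6 copies of GGGCGG, no CTTTG and no TATAAA. The Wnt1 region held 1 CTTTG, starting 20 bases before the transcript, and 1 GGGCGG. The Wnt11 region held 2 copies of CTTTG, 4 of GGGCGG and a TATAAA that starts 29 bases before the transcript. RefSeq gives Wnt11 another start as well, not printed here, whose region at chr7:98838595-98838844 held 0 copies of each motif and had a GC content of 56.8%. Of 32841 mouse regions of this length, 48.6% held CTTTG, 32.7% GGGCGG and 12.4% TATAAA. The GC content of the printed regions was 79.6%, 71.6% and 70.8%, against a median of 52.4% over all regions. A match of letters is a description and was not tested as a binding site.

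Wnt6 and Wnt10a are neighbours on chromosome 1, with 6193 bases and no protein-coding gene between them, both on the + strand. Wnt1 lies 11706 bases from Wnt10b on chromosome 15, and Wnt3 lies 24328 bases from Wnt9b on chromosome 11, in both pairs on opposite strands and with no protein-coding gene between. These distances are from GENCODE M21.

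The plot of mean levels by set gives each ligand's pattern. Wnt6, Wnt10a, Wnt3 and Wnt4 were highest in skin epithelial cells, Wnt7b in lung epithelial cells, Wnt5a in intestinal mesenchymal cells, Wnt11 in heart cells and Wnt1 in hindbrain cells. Wnt2 had its highest mean in the mesenchymal cells labelled liver, which came from E9.5 alone (2.60 ± 2.24), and at E9.5 lung mesenchymal cells measured 2.07 and 2.92, so no order is read between them. Wnt2b was highest in skin and lung mesenchymal cells. The highest set exceeded the next by more than the larger of their SDs for Wnt1, Wnt3, Wnt4, Wnt6 and Wnt10a, but not for Wnt2, Wnt2b, Wnt5a, Wnt7b or Wnt11.

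**Figure D1:**
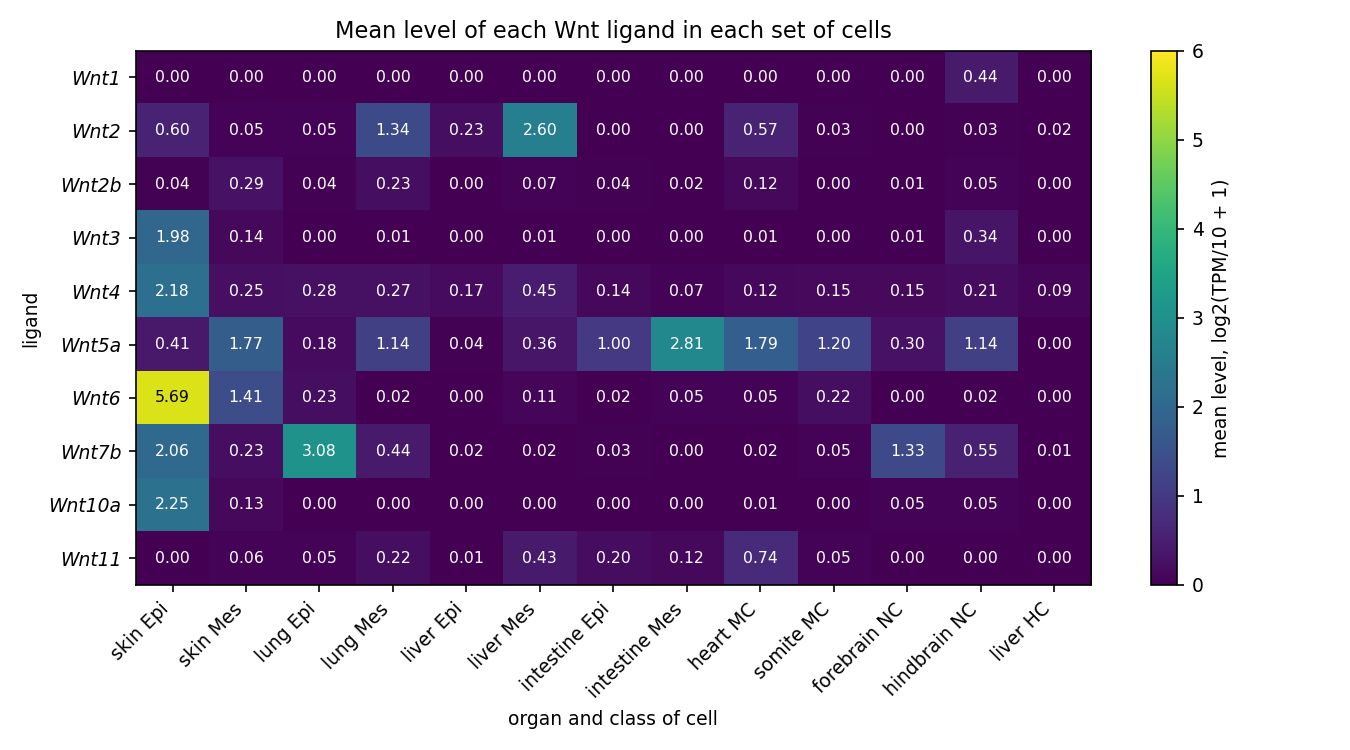
Mean over embryos of the level of each ligand (rows), in log2(TPM/10 + 1), in each of 13 sets of cells (columns, organ and class). Wnt6 in skin epithelial cells reached 5.69, and no ligand exceeded 0.09 in liver hematopoietic cells.

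Among 1805 cells, Wnt5a was expressed in 581, Wnt7b in 271, Wnt2 in 190, Wnt6 in 151, Wnt4 in 132, Wnt11 in 122, Wnt3 in 90, Wnt10a in 74, Wnt2b in 51 and Wnt1 in 20. In liver hematopoietic cells, which serve here as a low reference, 4 of 178 cells expressed any of the 10 ligands. No UMI of Wnt1, Wnt3, Wnt6 or Wnt10a was seen there, which allows a share of up to 1.69% of cells with a UMI, counting error only. Wnt4 had a UMI in 19.7% of these cells and reached 10 TPM in 3. Among cells of at least 100000 UMIs, Wnt4 was expressed in 1.2% of 166 liver hematopoietic and 68.8% of 64 skin epithelial cells.

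Set against the mean of the other major groups, 5 ligands were higher in epithelial cells: Wnt6 by 1.30 ± 0.17 (SE), Wnt7b by 0.79 ± 0.18, Wnt10a by 0.54 ± 0.10, Wnt4 by 0.53 ± 0.09 and Wnt3 by 0.42 ± 0.08 on the log2 scale. Of all genes tested, 17.1% were higher in this comparison. The epithelial group mixes organs that differ in these ligands. In skin epithelial cells Wnt6, Wnt10a, Wnt3 and Wnt7b had means of 5.69, 2.25, 1.98 and 2.06, and Wnt7b had 3.08 in lung epithelial cells. In intestinal and liver epithelial cells these 4 had means of at most 0.03. Wnt4 had 2.18 in skin, 0.28 in lung, 0.14 in intestinal and 0.17 in liver epithelial cells. Mesoderm-derived cells were higher in Wnt5a (0.99 ± 0.14), Wnt2 (0.55 ± 0.15), Wnt11 (0.27 ± 0.02) and Wnt2b (0.08 ± 0.01) and lower in Wnt7b (−0.63 ± 0.18), where 16.3% of genes passed. Neuronal cells were higher in Wnt7b (0.56 ± 0.19) and Wnt1 (0.21 ± 0.03) and lower in Wnt6 and Wnt11, with 31.1% of genes passing. In hematopoietic cells 7 ligands were lower and none higher, and 33.2% of all genes tested were lower there too. The median difference over the 10 ligands was 0.21 in epithelial cells and −0.21 in hematopoietic cells, beside medians over all genes of 0.00 and −0.03. In leave-one-embryo-out fits, the hematopoietic Wnt3 (−0.20) and the neuronal Wnt6 call (−0.54 to −0.48) were lost without any 1 of the 4 later embryos, and the neuronal Wnt7b call without E9.5 embryo 1 (0.45) or E11.5 embryo 1 (0.49) or 2 (0.59). The mesoderm Wnt7b call was lost without E10.5 embryo 1 or E11.5 embryo 2 (−0.62 in both fits), and the hematopoietic Wnt6 call without E10.5 embryo 2 (−0.46). The hematopoietic Wnt11 call was lost with edgeR.

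Skin epithelial cells, which expressed the epithelial markers Epcam, Cdh1, Cldn6, Cldn7, Krt8 and Krt18 and the epidermal regulator Trp63, expressed the most ligands per cell. Of 6 mesenchymal markers, 3 were also expressed in 50% or more of these cells. Wnt6, a ligand of the early surface ectoderm, was expressed in 78 of 78 cells. It measured 5.52 for embryo 2 and 5.70 for embryo 3 of E9.5, then 6.11 and 5.07 for those of E10.5 and 6.33 and 5.41 for those of E11.5, a mean of 5.69 ± 0.46 (n = 6) or 575 ± 168 TPM. In skin mesenchymal cells the levels were 1.46, 0.63, 1.47, 1.46, 0.99 and 2.47 in the same order, and the lowest epithelial value lay above the highest mesenchymal one. The difference of 4.28 ± 0.16 passed (adjusted p = 2.02e-34). The fit pools the spread of a gene over all sets, including those where it is near 0.

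Wnt10a, a ligand known from tooth, hair and sweat gland development, was expressed in 64 of 78 skin epithelial cells. Its levels were 1.36 and 1.71 (E9.5), 1.66 and 1.80 (E10.5), and 4.00 and 2.98 (E11.5), against 0.00 to 0.37 in skin mesenchymal cells. The groups did not overlap, and the difference was 2.12 ± 0.16 (adjusted p = 2.88e-17). Its mean level was at most 0.05 in the 11 sets outside skin and 0.06 in the hematopoietic cells of other organs.

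Wnt4, which is known from kidney and gonad development, was expressed in 55 of 78 skin epithelial cells at levels from 1.59 to 2.80, against 0.06 to 0.53 in skin mesenchymal cells (difference 1.93 ± 0.14, adjusted p = 2.32e-18). Wnt3, a canonical ligand of the gastrulating embryo and limb ectoderm, was expressed in 51 cells. Its levels were 1.89 and 0.37 (E9.5), 2.55 and 2.18 (E10.5), and 2.81 and 2.05 (E11.5), and the low E9.5 embryo 3, with Wnt3 expressed in 1 of 10 cells, fell inside the mesenchymal range of 0.00 to 0.57. The difference was 1.83 ± 0.14 (adjusted p = 2.95e-17). Wnt7b was expressed in 60 cells at levels from 0.67 to 3.17, against 0.01 to 0.93 in mesenchymal cells (difference 1.82 ± 0.29, adjusted p = 1.2e-06), and the ranges overlapped through E9.5 embryo 2.

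Wnt5a and Wnt2b went the other way in skin. Wnt5a was higher in skin mesenchymal cells, with levels from 1.27 to 2.85 against 0.05 to 1.19 in epithelial cells, and without overlap (difference −1.36 ± 0.35, adjusted p = 0.00473). Wnt2b, a canonical ligand of mesenchyme and of eye and lung primordia, was low in both, at 0.29 ± 0.19 in mesenchymal and 0.04 ± 0.05 in epithelial cells (difference −0.25 ± 0.04, adjusted p = 2.22e-05), and this call was lost when the contrast was fitted alone and with edgeR. In all, 7 of 10 ligands passed between skin epithelial and mesenchymal cells, where 9.66% of all genes did. The median difference was 1.19 over the ligands and 0.00 over all genes.

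**Figure D2:**
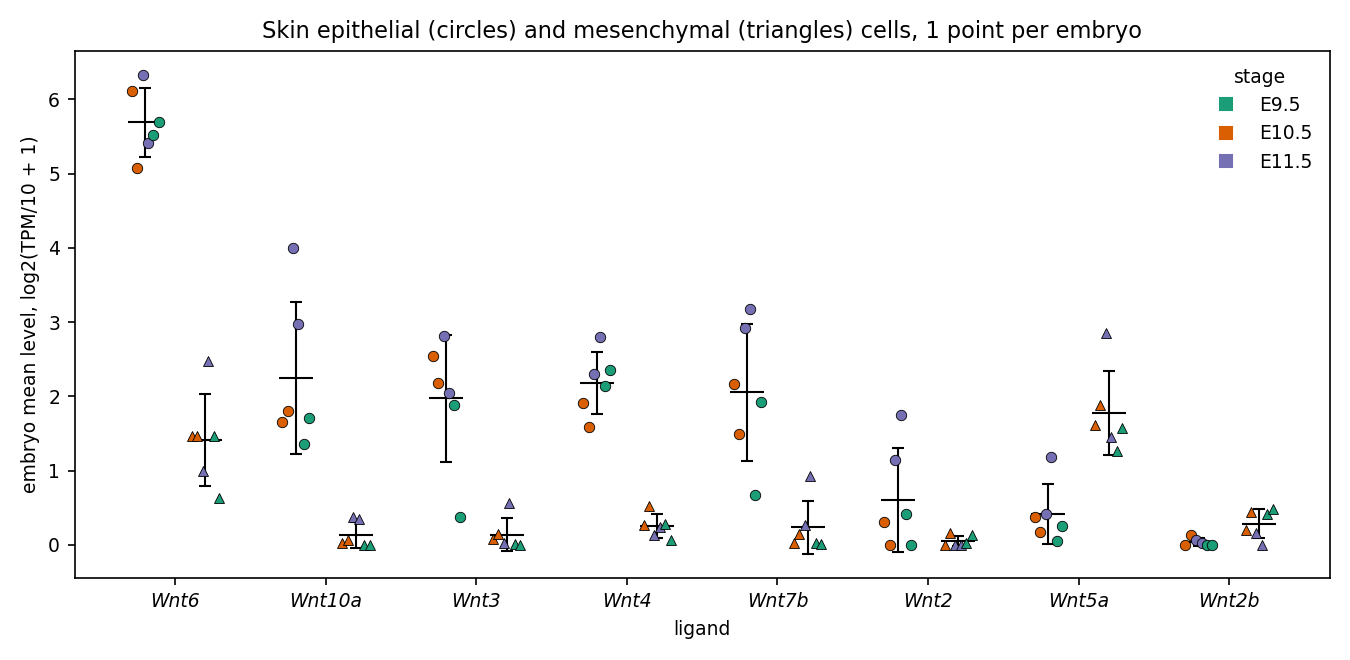
Level of 8 ligands in skin epithelial (circles) and skin mesenchymal cells (triangles), in log2(TPM/10 + 1), with 1 point per embryo coloured by stage and bars for mean ± SD (n = 6). Wnt6, Wnt10a and Wnt4 did not overlap between the classes, and Wnt5a was higher in the triangles.

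Wnt6 was also expressed in 35 of 77 skin mesenchymal cells, and 84.4% of the 77 had at least 1 UMI of it. The 35 cells carried mesenchymal genes, with Col3a1, Col1a2, Pcolce and Cdh11 expressed in 35 of 35, as in 42 of 42 cells without Wnt6. Of the epidermal genes, Trp63 was expressed in 6 of 35 against 0 of 42, Krt14 in 4 against 0 and Tfap2b in 15 against 13. These counts pool embryos, and median depth was 232040 UMIs with Wnt6 and 358777 without. Within embryos the summed level of Trp63, Krt5, Krt14, Krt15 and Tfap2b went both ways. With and without Wnt6 it was 0.68 and 0.20, then 1.61 and 2.06, in E9.5 embryos 2 and 3. It was 2.54 and 3.77, then 1.86 and 0.52, in E10.5 embryos 1 and 2, and 1.53 and 2.17 in E11.5 embryo 1. Epithelial genes were found too, with Krt8 in 29 of 35 against 32 of 42 and Krt18 in 26 against 25. Cldn6 was expressed in 12 against 7, Cdh1 in 5 against 1 and Epcam in 6 against 9. Over skin mesenchymal cells, 860 UMIs of Wnt6 stood beside 18 of Wnt10a and 21 of Wnt3, a ratio of 47.8 and 41.0, where skin epithelial cells had ratios of 8.90 and 11.1. For Wnt4 the ratios were 10.4 and 8.34, for Wnt7b 22.1 and 11.1, and for Epcam 3.27 and 1.63. These UMIs were summed over all embryos. The deep E9.5 embryo 2 (medians of 943833 and 949896 UMIs) gave 19 of 77 mesenchymal and 7 of 78 epithelial cells. The ratios therefore carry stage and depth too. Epithelial cells came from the same skin samples, and their part in the mesenchymal Wnt6 was not tested. Against the mesenchymal cells of the other 3 organs, skin mesenchymal Wnt6 was higher by 1.35 ± 0.13 (adjusted p = 1.35e-12). Wnt2b was also higher there (0.18 ± 0.04) and Wnt2 lower (−1.26 ± 0.26), beside 5.99% of all genes. Both of these calls were lost with edgeR and when fitted alone, and that of Wnt2 on HiSeq 4000 embryos alone.

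Against the epithelial cells of the other organs, 5 ligands were higher in skin epithelial cells, Wnt6 by 5.61 ± 0.13, Wnt10a by 2.25 ± 0.13, Wnt4 by 1.99 ± 0.12, Wnt3 by 1.98 ± 0.12 and Wnt7b (adjusted p = 0.000757), while 10.1% of all genes were higher. Intestinal and liver epithelium had Wnt6 means of 0.02 and 0.00, and in lung its mean of 0.23 came mainly from E9.5 embryo 2, at 1.16 with 1 of 3 cells expressing it.

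Most skin epithelial cells carried several ligands at once. Of 78 cells, 0 expressed none of the 10, 2 expressed 1, 6 expressed 2, 10 expressed 3, 18 expressed 4, 27 expressed 5, 11 expressed 6 and 4 expressed 7. The embryo mean was 4.18 ± 0.87 ligands per cell, and 4.37 when cells were thinned to 100000 UMIs. The next sets were skin mesenchymal cells with 1.47 ± 0.36, then heart and lung mesenchymal cells with 1.18 ± 0.37 and 1.18 ± 0.26, lung epithelial and liver mesenchymal cells with 1.09 ± 0.29 and 1.09 ± 0.39 (n = 3), and the value in liver epithelial cells was 0.09 ± 0.10. Thinned means were 2.09 in skin mesenchymal and 0.22 in liver epithelial cells. Wnt3 and Wnt10a were found together in 45 skin epithelial cells: Wnt10a was expressed in 88.2% of the 51 cells with Wnt3 and in 70.4% of those without. The E11.5 embryos held 18 and 20 of the 64 cells with Wnt10a, so these shares carry the stage too.

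**Figure D3:**
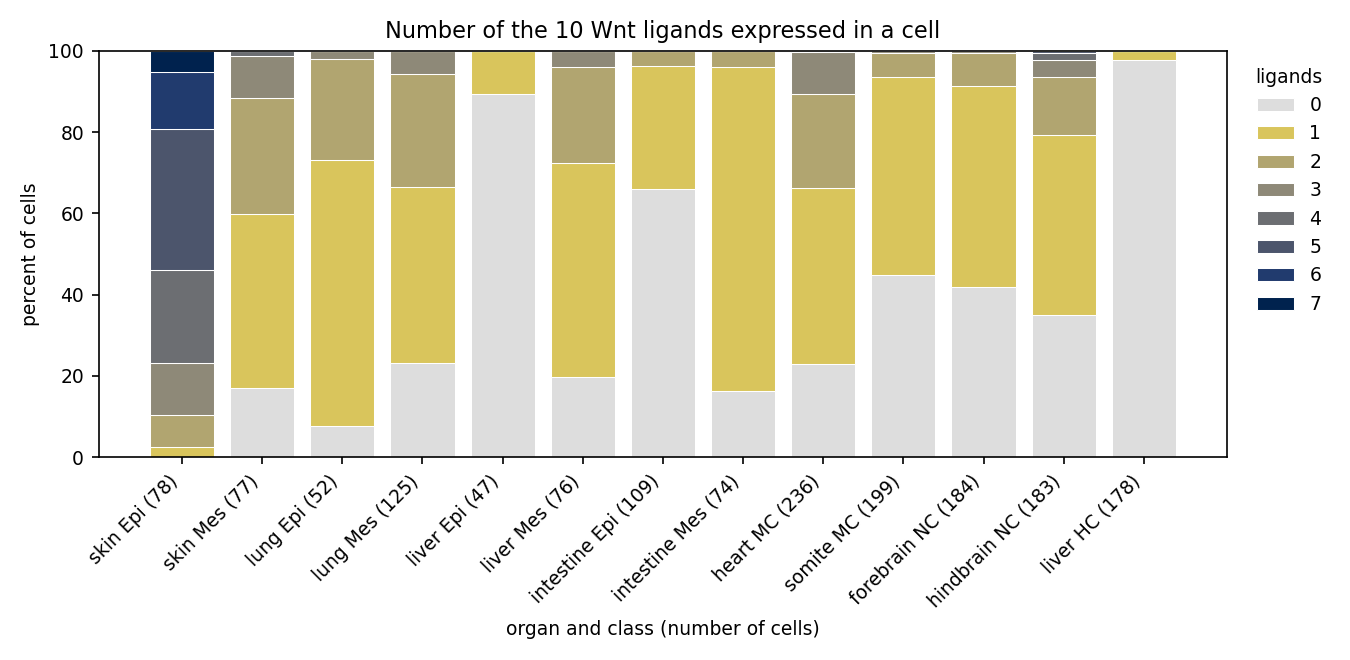
Percent of the cells of each set (bars, with the number of cells in parentheses) that expressed 0 to 7 of the 10 ligands (colours). In skin epithelial cells 97.4% expressed 2 or more, against 40.3% of skin mesenchymal cells and 0% of liver epithelial and liver hematopoietic cells.

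Genes of the stratifying epidermis were set beside Wnt10a in these cells, over all embryos together. Krt15 was expressed in 73.4% of the 64 skin epithelial cells with Wnt10a against 21.4% of the 14 without, and Krt14 in 68.8% against 21.4%. Krt5 was expressed in 41.7% of cells with Wnt7b and in 0 of 18 without it. Cells with the ligand were not the deeper ones for Wnt10a (median 216428 against 401415 UMIs). The summed level of 5 epidermal markers, Krt5, Krt14 and Krt15 among them, was also highest in the E11.5 embryos, which held 18 and 20 of the 64 cells with Wnt10a and 1 of the 14 without, so the shares over all cells carry the stage too. Within embryos this sum went both ways, at 8.72 in cells with and 7.82 in cells without Wnt10a in E9.5 embryo 2, 9.99 and 10.96 in E9.5 embryo 3, 9.94 and 7.36 in E10.5 embryo 1, 11.29 and 9.82 in E10.5 embryo 2, and 19.06 and 23.09 in E11.5 embryo 2. These splits describe cells and were not tested.

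Other members of the pathway differed between skin epithelial and mesenchymal cells, in the comparison where 9.66% of all genes passed. Of 9 other Wnt ligands, 3 were higher in skin epithelial cells, Wnt3a (0.60), Wnt9b (0.49) and Wnt10b (0.20). Of 3 genes of ligand processing, the carrier Wls was higher (0.90). Of 14 inhibitors, all secreted but for Kremen1 and Kremen2, membrane receptors for Dkk proteins, Sostdc1 (5.28), an antagonist of Wnt and BMP, and Kremen2 (2.40) were higher and 5 were lower, among them the Wnt-binding Frzb (−1.48) and Sfrp2 (−1.41). Of 9 target genes, 5 were lower and 0 higher in epithelial cells, the largest differences being those of Nkd1 (−2.81), Nkd2 (−2.16), Ccnd1 (−1.73) and Lef1 (−1.50). Against the mesenchymal cells of the other organs, Nkd2 (2.42), Nkd1 (2.25), Lef1 (1.75) and Axin2 (1.74) were higher in skin mesenchymal cells, 4 of 9 targets with none lower, beside 5.99% of all genes. Between the skin classes again, 2 of 16 receptors and co-receptors were higher in epithelial cells, Fzd6 (0.99) and Fzd3 (0.93), and 1 was lower. Of the ligands that neighbour a member in the genome, Wnt9b had a level of 0.51 ± 0.67 and Wnt10b of 0.21 ± 0.28 in skin epithelial cells.

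Lung epithelial cells were marked by Wnt7b, a canonical ligand of the lung and forebrain epithelia known for its role in lung mesenchymal growth. It was expressed in 45 of 52 cells. Levels were 3.24 (E9.5 embryo 3), 3.84 and 3.83 (E10.5), and 3.02 and 3.66 (E11.5), whereas E9.5 embryo 2, with 3 cells, had 0.90. Lung mesenchymal cells had 0.01 to 1.16, so the groups overlapped only through that embryo. The difference of 2.65 ± 0.29 passed (adjusted p = 3.43e-11), and lung epithelial cells exceeded the epithelial cells of the other organs by 2.38 ± 0.23. In that comparison Wnt6, Wnt10a, Wnt3 and Wnt4 were lower, 5 of 10 ligands passing beside 10.6% of all genes, but with edgeR none of these 4 passed and the Wnt6 difference turned to 2.41. The other-organ mean holds skin, and with it 5 ligands were lower in liver (9.33% of all genes lower), of which those of Wnt3 and Wnt10a were lost with edgeR, and 5 in intestine, of which edgeR kept that of Wnt7b. In intestine Wnt5a was higher by 0.79 ± 0.27 (12.7% passed), a call lost in 8 alternatives. Among these, its difference was 0.55 without E9.5 embryo 1 (limma, adjusted p = 0.209), 0.85 without E9.5 embryo 2 and 0.74 and 0.73 without E10.5 embryos 1 and 2. Nkx2-1, the lung epithelial regulator, was expressed in 45 of 45 cells with Wnt7b and in 4 of 7 without.

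In lung mesenchymal cells Wnt2, a canonical ligand of lung mesenchyme, took the opposite side. It was expressed in 51 of 125 cells, at levels of 2.07 and 2.92 (E9.5), 1.30 and 1.42 (E10.5), and 0.00 and 0.34 (E11.5), against a mean of 0.05 ± 0.03 in lung epithelial cells. The difference was −1.29 ± 0.31 (adjusted p = 0.00271), and that of Wnt2b was −0.20 ± 0.04 (adjusted p = 0.00109), a call lost with edgeR, on the log2(TPM + 1) scale and when fitted alone. Wnt5a did not pass, at a difference of −0.97 (adjusted p = 0.079). Altogether 3 of 10 ligands passed, where 8.47% of all genes did, and the median difference was −0.01 over the ligands and 0.00 over all genes. Over all lung mesenchymal cells, Wnt5a was expressed in 19.6% of cells with Wnt2 and in 41.9% of those without, and Col1a1 in 33.3% and 81.1%. Of the 51 cells with Wnt2, 14 and 23 came from the E9.5 embryos and 0 and 2 from those of E11.5. These shares therefore carry the stage too. The 16 lung mesenchymal cells with Wnt7b expressed the epithelial genes Cldn6 (75.0% against 22.9% of those without) and Epcam (56.2% against 19.3%) more often, and the part of epithelial RNA in them was not tested.

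In intestine, 1 of 10 ligands was lower in epithelial than in mesenchymal cells, beside 4.37% of all genes. Wnt5a, a ligand needed for gut elongation, was expressed in 61 of 74 intestinal mesenchymal cells, at levels from 1.13 to 4.27 (E9.5 embryos 1 and 2, with embryo 3 between them), and with 3.63 and 3.22 for E10.5 and 3.39 and 1.99 for E11.5. In intestinal epithelial cells the levels ran from 0.32 to 2.47, the highest in E9.5 embryo 1 with 5 cells, so the ranges overlapped. The difference was −1.80 ± 0.33 (adjusted p = 2e-05). Against mesenchymal cells of the other organs, intestinal Wnt5a was higher by 1.71 ± 0.29 (adjusted p = 1.03e-05), where Wnt2, Wnt2b and Wnt6 were lower and 5.08% of all genes passed. The Wnt2 call was lost on HiSeq 4000 embryos alone and that of Wnt2b when fitted alone. Wnt6 was also lower in lung mesenchymal cells (−0.51 ± 0.13, 1.20% of all genes lower), and these Wnt6 calls, against a mean that holds skin, were lost in 8 alternatives each. Without E9.5 embryo 1, E10.5 embryo 1 or 2, or E11.5 embryo 2, the Wnt6 difference was −0.45 to −0.38 in intestine and −0.50 to −0.45 in lung, and none of these passed. Wnt11, known for its role in cell movement, was low here, at 0.20 ± 0.18 in epithelial and 0.12 ± 0.20 in mesenchymal cells.

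In liver, mesenchymal cells were available with at least 3 cells from the E9.5 embryos alone. Wnt2 was expressed in 47 of 76, and its level differed by embryo, at 4.87 in embryo 1 (29 of 29 cells), 2.53 in embryo 2 (14 of 25) and 0.39 in embryo 3 (4 of 22). Liver epithelial cells had 0.09 to 0.78 at E9.5 and 0.00 in the later embryos measured. The difference of −2.37 ± 0.38 passed (adjusted p = 1.89e-06), as did that of Wnt11 (−0.42 ± 0.10, adjusted p = 0.00229), 2 of 10 ligands beside 5.29% of all genes lower. Against the other mesenchymal sets Wnt2 was higher by 2.13 ± 0.34 and Wnt5a lower (−1.55 ± 0.38), beside 3.30% of all genes. These contrasts set E9.5 liver cells against sets that span E9.5 to E11.5, and lung mesenchymal Wnt2 at E9.5 was 2.07 and 2.92, so stage and organ cannot be told apart in them. On HiSeq 4000 embryos alone, which leave embryo 3, both Wnt2 calls were lost, that against the other sets with a value of −0.03 and also without embryo 1 (0.99), and the Wnt11 call was lost without embryo 3 (−0.20). The Wnt5a call was lost on HiSeq 4000 embryos alone, with edgeR and when fitted alone, and also without embryo 2 (−1.53) or embryo 3 (−1.51).

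The summed level of 6 cardiomyocyte markers moved with Wnt2 in these cells, at 18.67, 12.77 and 3.76 in embryos 1, 2 and 3, and the summed level of 5 liver markers was 2.82, 11.07 and 8.23. Of the cardiomyocyte markers, Tnnt2 was expressed in 41 of 47 cells with Wnt2 against 11 of 29 without and Actc1 in 38 against 5, but Myh7 in none and Nkx2-5 in 1. Tbx18, a gene of epicardium and septum transversum, was expressed in 38 of 47 cells with Wnt2 and 3 of 29 without, and Foxf1, a gene of gut and lung mesenchyme, in 11 and 24. Embryo 1 held 29 of the 47 cells with Wnt2 and 0 of those without, so the shares over all cells carry the embryo too. In embryo 2, the cardiomyocyte marker sum was 15.74 in cells with Wnt2 and 8.99 in those without, and in embryo 3 it was 4.08 and 3.69. The summed level of 5 epicardial markers, Tbx18 among them, went both ways, at 8.89 and 5.62 in embryo 2 and 8.04 and 9.54 in embryo 3. The part of heart-associated tissue in the Wnt2 level was not tested.

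**Figure D4:**
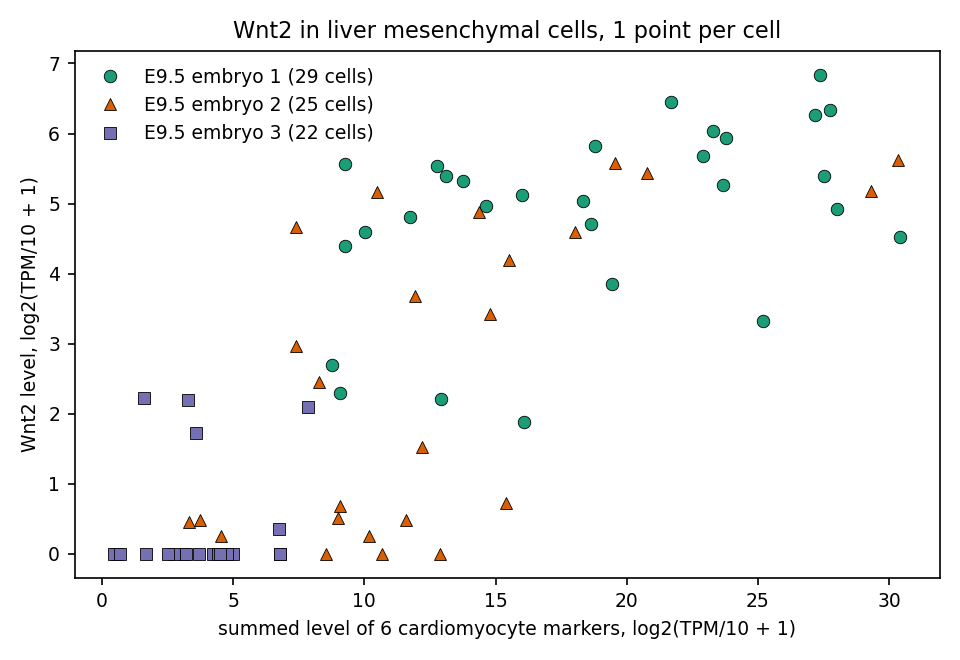
Wnt2 level of each of 76 liver mesenchymal cells (vertical axis) against the summed level of 6 cardiomyocyte markers (horizontal axis), both in log2(TPM/10 + 1), with colour and shape for the 3 E9.5 embryos. All 29 cells of embryo 1 lie above a Wnt2 level of 1, while 18 of 22 cells of embryo 3 lie below it.

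The difference between epithelial and mesenchymal cells was itself compared between organs, in 6 pairs of organs. Skin differed from each of intestine, liver and lung in Wnt3, Wnt4, Wnt6 and Wnt10a, by −1.83 to −4.39 on the log2 scale. For Wnt6 the values were −4.31 ± 0.22 for intestine minus skin, −4.39 ± 0.25 for liver minus skin and −4.07 ± 0.22 for lung minus skin. For Wnt7b, intestine and liver differed from lung (−2.62 ± 0.39 and −2.64 ± 0.46) and from skin (−1.80 ± 0.39 and −1.82 ± 0.46), whereas lung minus skin did not pass. With edgeR, 8 of the 22 organ differences that had passed were kept. Those of Wnt3, Wnt4, Wnt6 and Wnt10a were lost for intestine minus skin, those of Wnt3 and Wnt10a for liver minus skin, those of Wnt6 and Wnt10a for lung minus skin, and all 4 of Wnt7b. Also lost were those of Wnt2 for intestine minus liver and Wnt2b for intestine minus lung. In the intestine minus skin comparison 6 of 10 ligands passed beside 7.60% of all genes, in liver minus skin 6 beside 6.48% that were lower, in lung minus skin 5 beside 3.81% lower, in intestine minus liver 2 beside 5.89% higher, in intestine minus lung 2 beside 4.92%, and in liver minus lung 1 beside 3.60% lower.

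In the heart, where Tnnt2, Actc1 and Tnni1 were expressed in 236 of 236 cells, Wnt11 was the 1 ligand that stood above the other mesenchymal and mesoderm-derived sets. Wnt11, known from cardiac specification and outflow tract development, was expressed in 73 of 236 cells, at levels of 0.59 and 1.19 (E9.5), 0.62 and 0.96 (E10.5), and 0.69 and 0.39 (E11.5). It exceeded the mean of the other 5 mesenchymal or mesoderm-derived sets by 0.56 ± 0.07 (adjusted p = 3.37e-10), beside 6.71% of all genes that were higher. Its range overlapped with that of liver mesenchymal cells (0.10 to 0.89). Wnt5a was expressed in 144 cells, at 1.10 to 2.26.

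Heart cells with Wnt11 carried more of the epicardial markers Wt1, Tbx18, Upk3b, Tcf21 and Aldh1a2, in each of the 6 embryos. The summed level in cells with and without Wnt11 was 8.33 against 4.21 and 4.91 against 3.83 (E9.5), 15.83 against 7.46 and 22.03 against 9.54 (E10.5), and 18.22 against 6.67 and 10.16 against 5.31 (E11.5). Upk3b was expressed in 53.4% of the cells with Wnt11 against 21.5% of the others. Cells with Wnt11 were deeper, with a median of 420936 against 252417 UMIs. The 12 heart cells with Wnt2b all expressed Upk3b and Tcf21, against 27.7% and 48.7% of the others, and the endothelial genes Pecam1 and Cdh5 were each expressed in 5 of 7 cells with Wnt4. Wnt2 was expressed in 45 heart cells, at 0.03 to 1.09.

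In somite cells Wnt5a was expressed in 92 of 199, at 0.26 to 2.10, and Wnt6 in 14. Of the 14, 12 expressed Pax3 and 12 Myf5, genes of the dermomyotome and early muscle, against 43.8% and 34.1% of the others. Pax1, a sclerotome gene, was expressed in 54.3% of cells with Wnt5a and 32.7% without. By embryo, Wnt5a was expressed in 10% to 71% and Wnt6 in 0% to 23.3% of somite cells. The marker shares over all somite cells therefore carry embryo and stage too, and were not tested. Wnt2 (−0.88 ± 0.23), Wnt11 (−0.26 ± 0.06) and Wnt2b (−0.14 ± 0.03) were lower in somite than in the mean of the other sets, where 2.76% of all genes were lower. The Wnt2 and Wnt2b calls were lost on HiSeq 4000 embryos alone and that of Wnt11 with edgeR. Those of Wnt2 and Wnt11 were also lost when fitted alone, and that of Wnt2 without E10.5 embryo 2 (−0.85). Of the 9 other ligands, 1 passed, Wnt16, which was higher in somite by 1.33.

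Wnt1 was expressed in 19 of 183 hindbrain cells and in no cell of the other 12 sets. Levels were 0.97 and 0.48 (E9.5), 0.04 and 0.58 (E10.5), and 0.33 and 0.26 (E11.5), and cells that expressed it reached a median level of 4.66. The difference of forebrain minus hindbrain was −0.44 ± 0.05 (adjusted p = 2.95e-10), 1 of 10 ligands beside 2.25% of all genes that were lower, and it was lost when this contrast was fitted on its own samples alone. Wnt7b (0.78, adjusted p = 0.21) and Wnt5a (−0.84, adjusted p = 0.37) did not pass. Wnt7b was expressed in 87 of 184 forebrain cells, at levels from 0.19 to 2.54, and in 36 of 183 hindbrain cells, at 0.02 to 1.08.

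Hindbrain cells with Wnt1 more often expressed the roof plate genes Lmx1a (36.8% against 5.49%) and Rspo1 (47.4% against 4.88%). The other 2 of the 4 roof plate markers, Msx1 and Gdf7, had very low mean levels over the hindbrain cells. Cells with Wnt1 also more often expressed the mid- and forebrain gene Otx2 (94.7% against 59.8%), and less often the neuronal gene Dcx (26.3% against 59.8%). In E9.5 embryo 1, which held 10 of the 19 cells, their roof plate sum was 4.38 against 0.60 in the other cells, and their midbrain-hindbrain sum, over En1, En2, Pax2, Pax5 and Gbx2, was 0.10. In E10.5 embryo 2 the 4 cells with Wnt1 had a midbrain-hindbrain sum of 5.96 and a roof plate sum of 0.00. In the cells labelled hindbrain, Hoxb2, Hoxa3 and Hoxb3 were expressed in 0 of 183, Hoxa2 in 1 and Egr2 in 3, while Otx2 was expressed in 116. The study's lists of classes name these cells metencephalon. Wnt3 was expressed in 8 of the 19 cells and in 11.6% of the rest, and Wnt5a in 70 hindbrain cells, of which 31.4% expressed Dcx against 71.7% of the others. The E9.5 embryos held 10 and 3 of the 19 cells with Wnt1, and 33 and 29 of those without. Wnt5a was expressed in 7.69% to 63% of hindbrain cells by embryo. The shares over all hindbrain cells therefore carry embryo and stage too, and were not tested.

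With the stage, ligands rose in skin epithelial cells and Wnt2 fell in lung mesenchymal cells. In skin epithelial cells, the slope per day was 0.98 ± 0.09 for Wnt10a (adjusted p = 1.13e-12), 0.88 ± 0.24 for Wnt7b (adjusted p = 0.0179), 0.65 ± 0.11 for Wnt3 (adjusted p = 2.46e-05) and 0.62 ± 0.11 for Wnt2 (adjusted p = 5.96e-05), 4 of 10 ligands where 1.68% of all genes rose. Wnt2 was expressed in 2 of 39 skin epithelial cells before E11.5 and in 19 of 39 at E11.5, at levels of 1.14 and 1.75. None of these slopes passed with edgeR, the Wnt3 slope was lost without E9.5 embryo 3 (0.24) and when fitted alone, the Wnt2 slope without E11.5 embryo 2 (0.39) and the Wnt7b slope without E9.5 embryo 2 (0.66) or E11.5 embryo 2 (0.77). Wnt6 and Wnt4 slopes did not pass. The summed level of skin markers was 8.33 and 10.28 in the first stage and 20.79 and 19.25 in the last, with median depths of 949896 and 481814 against 216428 and 155698 UMIs. Their part in the slopes was not tested.

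The slope of Wnt2 in lung mesenchymal cells was −1.17 ± 0.11 per day (adjusted p = 9.72e-12), 1 of 10 ligands beside 0.885% of all genes that fell, and it did not pass with edgeR. The share of cells with Wnt2 fell from 14 of 30 and 23 of 28 at E9.5 to 0 of 8 and 2 of 25 at E11.5. The summed mesenchymal marker level ran the other way, from 13.14 and 13.38 in the E9.5 pair to 27.03 and 25.09 in the E11.5 pair, and its part was not tested. The slope of Wnt2 differed between lung epithelial and mesenchymal cells by 1.15 ± 0.15 (adjusted p = 7.94e-07), where 0.277% of all genes were higher, a call lost with edgeR and when fitted alone. Between skin epithelial and mesenchymal cells, the slopes of Wnt10a (0.80 ± 0.12), Wnt2 (0.66 ± 0.15) and Wnt2b (0.21 ± 0.05) were higher in epithelial cells, beside 0.596% of all genes. None of these 3 passed with edgeR, where the Wnt10a value turned to −2.50, or when fitted alone. That of Wnt2 was also lost without E11.5 embryo 1 (0.69) or 2 (0.43), and that of Wnt2b, lost in 10 alternatives, without E9.5 embryo 2 (0.23) or 3 (0.20) or E11.5 embryo 2 (0.18).

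Wnt2b fell in skin mesenchymal cells by 0.19 ± 0.03 per day (0.501% of all genes fell), a slope lost without E11.5 embryo 2 (−0.15), and Wnt1 fell in hindbrain cells by 0.22 ± 0.04 (2.27% of all genes fell), a slope lost without E9.5 embryo 1 (−0.08). Neither passed with edgeR or when fitted alone. The forebrain minus hindbrain difference in the Wnt1 slope was 0.21 ± 0.06 (adjusted p = 0.0448), beside 0.731% of all genes, with 0 of 184 forebrain cells expressing Wnt1. This call was lost in 10 alternatives, among them the fits without E9.5 embryo 1 (0.08) or 3 (0.21), E10.5 embryo 2 (0.21) and E11.5 embryo 1 (0.26) or 2 (0.23), and with edgeR the value turned to −0.14. In the other 7 sets, 0 of 70 ligand slopes passed with limma, 6 had an unadjusted p under 0.05, and 1 passed with edgeR. The share of all genes passing in these sets was 3.67%, 6.32% and 4.11% in intestinal, liver and lung epithelial cells, 2.23% in intestinal mesenchymal cells, 10.3% in forebrain, 4.46% in heart and 0.808% in somite. Of the 9 other ligands, 4 rose in skin epithelial cells (1.68% of all genes rose), Wnt7a (0.65), Wnt9b (0.65), Wnt3a (0.54) and Wnt10b (0.28). The hindbrain cells of E9.5 all came from HiSeq 2500 libraries, so platform and stage cannot be told apart there, and on HiSeq 4000 embryos alone the slopes of Wnt7b in skin epithelium and Wnt1 in hindbrain were lost.

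**Figure D5:**
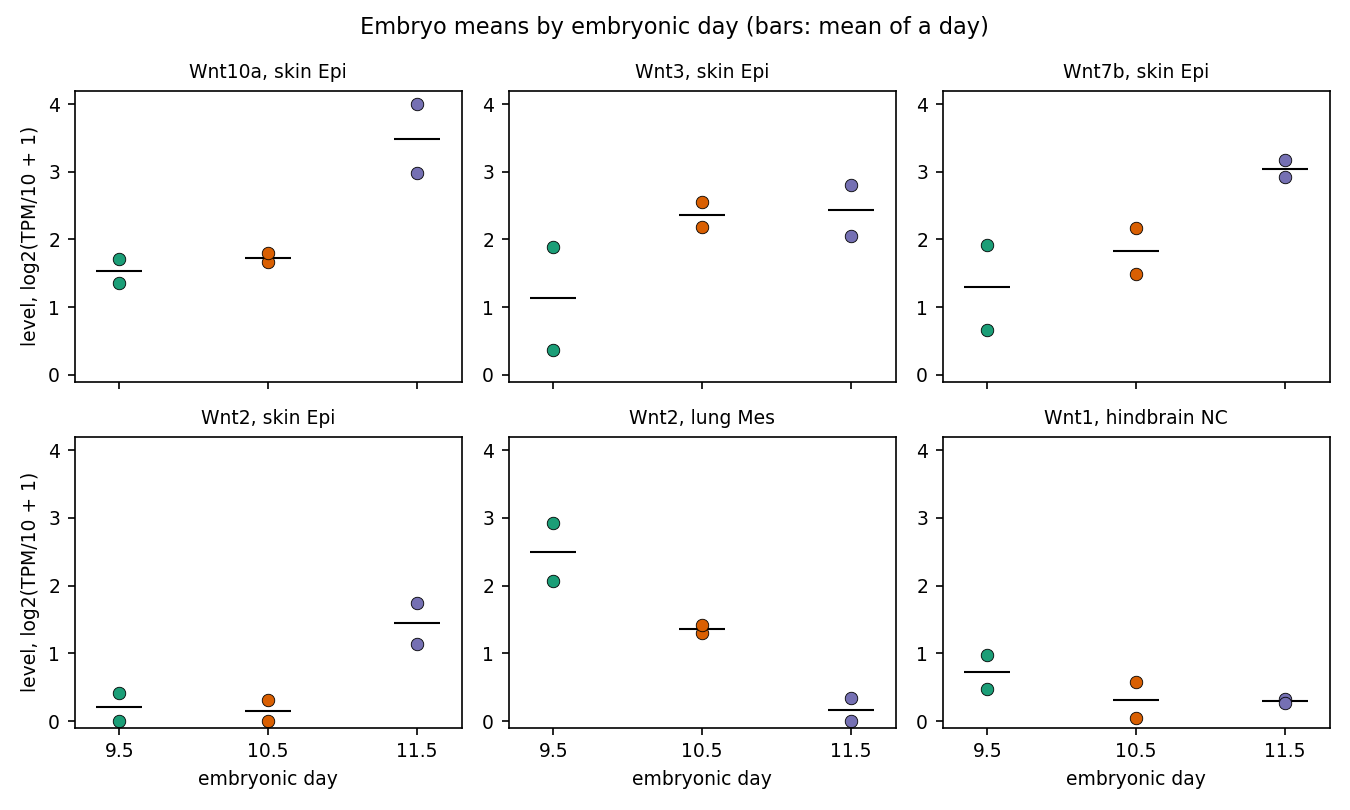
Embryo levels, in log2(TPM/10 + 1), of Wnt10a, Wnt3, Wnt7b and Wnt2 in skin epithelial cells, Wnt2 in lung mesenchymal cells and Wnt1 in hindbrain cells, by embryonic day, with bars for the mean of a day. Both E11.5 embryos lie above all earlier ones for Wnt10a, Wnt7b and Wnt2 in skin, and below them for Wnt2 in lung.

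The genes most like each ligand over 83 embryo levels of 14 sets of cells, of 8897 genes compared, were named by Pearson correlation, as a description: sets and embryos share these points. Among the genes most like Wnt6 were Sostdc1 (r = 0.98) and Sfn (0.97), and Wnt10a was most like Cbr2 (0.97), Upk3bl (0.96) and the Dkk receptor Kremen2 (0.95), each with its highest mean in skin epithelial cells. Wnt4 was most like Chst5 (0.92) and Wnt3 like Sfn (0.91). Wnt1 was most like Pou3f1 (0.88) and Rfx4 (0.87), Wnt7b like Celsr1 (0.80), and Wnt2 like Vsnl1 (0.78) and the Wnt inhibitor Sfrp5 (0.76). Wnt11 was most like Gata4 (0.76), whose own highest mean was in liver mesenchymal cells (3.94), Wnt5a like Nid1 (0.71) and Wnt2b like Itga8 (0.71).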

How the data were processed

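Per the labels and methods, the authors picked single cells of dissociated organs, made barcoded 3′ libraries with UMIs by a modified STRT protocol, and used CASAVA 1.8, TopHat2 2.0.12 and HTSeq on mm10 (the version of HTSeq is not given in the sources used here). The extraction text of the HiSeq 2500 labels describes gonadal cells instead. The deposited values, named TPM by the authors, are CPM, scaled to 1000000 UMIs in each cell. Multiplying by the UMI total of the cell gave whole UMIs for 100% of values above 0 (tolerance 0.05), and totals equalled those in the study's table of cells in 1916 of 1916 cells. Of 1819 cells the study kept, 14 were left out because their column was identical to another. Classes of cells were taken from the same table, the study's own annotation, and organs from the names of the deposited columns. The study's lists of classes name the hindbrain cells metencephalon, and they were matched to the hindbrain columns. Cells were picked by hand, and no doublet caller was run.

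Tests on embryo levels used limma 3.58.1 (eBayes with trend, R 4.3.3), in fits over major groups, sets, and sets with day, for genes expressed in at least 3 cells compared. Alternatives were edgeR 4.0.16 on summed UMIs, other scales, filters, thinning to 100000 UMIs, embryos left out, a fit per contrast, and the embryo as block. Embryos pair the samples, as all organs with the same embryo number are of the same animal. Deviations of a set from its mean over all embryos correlated between sets of an embryo at −0.148 to 0.712 (median 0.113, 392 pairs). These deviations hold the stage too. Deviations from the mean of the day correlated at −0.239 to 0.418 (median 0.050, 372 pairs). Intervals and limits cover counting error only. The fits were also run on simulated data with the same spread for a gene in every set, which does not test a spread that differs between sets. The ligands and lists were chosen with earlier results of these data known. All 10 ligands were named in every comparison, of other pathway lists up to 4 genes with the largest differences among those that passed, and the genes most like a ligand from the 3 with the highest correlation. Some of the latter are not reported here. Beside a count of ligands, the share of all genes passing is given in the direction of the ligands where all of them went one way, and otherwise in either. The marker splits named were chosen after seeing the values. Deposited columns mapped to no sample numbered 0. RefSeq start regions matched 7 of 10 ligands.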

Additional observations from a re-analysis of the deposited data

Results flagged for a closer look

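Wnt7b in the lung epithelial cells of E9.5 embryo 2 lay apart from the other 5 embryos, at 0.90 against 3.02 to 3.84. This embryo gave 3 such cells. Of 20 groups of embryo levels examined with a mean of 0.5 or more, 1 held such a value, and chance gives about 1 in 20.

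The difference between epithelial and mesenchymal cells differed between organs for 22 of 60 combinations of a ligand and a pair of organs (limma, adjusted p under 0.05), given here on the log2 scale as the first organ minus the second. Intestine minus liver was 2.37 for Wnt2 and 0.51 for Wnt11. The Wnt2 call was lost with edgeR, and on HiSeq 4000 embryos, which leave liver mesenchymal cells of E9.5 embryo 3 alone. Intestine minus lung was 0.22 for Wnt2b and −2.62 for Wnt7b. That of Wnt2b was lost without E9.5 embryo 2 or 3 (0.21), E10.5 embryo 2 (0.22) or E11.5 embryo 1 (0.16), and the intestine minus liver value of Wnt11 without E9.5 embryo 3 (0.27). Intestine minus skin was 0.27 for Wnt2b, −1.83 for Wnt3, −1.87 for Wnt4, −4.31 for Wnt6, −1.80 for Wnt7b and −2.12 for Wnt10a. Liver minus lung was −2.64 for Wnt7b. Liver minus skin was −2.92 for Wnt2, −1.85 for Wnt3, −2.20 for Wnt4, −4.39 for Wnt6, −1.82 for Wnt7b and −2.12 for Wnt10a. That of Wnt2 was also lost on HiSeq 4000 embryos. Liver mesenchymal cells came from E9.5 alone, so stage and organ cannot be told apart in the pairs with liver. Lung minus skin was −1.84 for Wnt2, −1.85 for Wnt3, −1.93 for Wnt4, −4.07 for Wnt6 and −2.12 for Wnt10a.

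The slope per day differed between classes of cells for 5 of 40 combinations. Epithelial minus mesenchymal slopes differed in lung for Wnt2 (1.15) and in skin for Wnt2 (0.66), Wnt2b (0.21) and Wnt10a (0.80), and the forebrain minus hindbrain slope differed for Wnt1 (0.21).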

How the results depend on the processing

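Of 104 calls, 26 were kept in every alternative and 78 were lost in 1 or more. With the embryo as a block, the paired fit kept 104 of 104 calls. All 104 were also kept with no gene filter and with both of each pair of identical columns, an alternative chosen after seeing the data. On the log2(TPM + 1) scale and with at least 5 cells per embryo 100 were kept, and thinning lost 3.

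A minimum difference of 1 (slope 0.5) left 55 calls, among them 1 between major groups, 11 between epithelial organs, 6 between mesenchymal organs, 0 in the brain comparison, 0 for heart and somite, and 3 slope differences. Fitting each contrast alone kept 82, and called 4 between mesenchymal organs, 0 in brain, 2 for heart and somite and 0 slope differences. With edgeR 59 were kept, among them 1 of 1 in brain, 8 of 22 organ differences, 0 of 7 slopes and 0 of 5 slope differences. New calls included, edgeR called 2 in brain, 10 organ differences, 2 slopes and 1 slope difference. HiSeq 4000 embryos alone kept 88, and called 2 for heart and somite and 3 slope differences.

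Some values changed sign: with edgeR, Wnt6 in lung against other epithelial organs (2.41), the skin slope difference of Wnt10a (-2.50) and the brain slope difference of Wnt1 (−0.14), and on HiSeq 4000 embryos, Wnt2 in liver against other mesenchymal organs (−0.03). The cause was not tested. Leaving out 1 embryo gave 17 to 23 group calls, 12 to 13 epithelial against mesenchymal, 20 to 22 between epithelial and 8 to 11 between mesenchymal organs, 1 to 2 in brain, 3 to 4 for heart and somite, 21 to 24 organ differences, 5 to 9 slopes and 3 to 5 slope differences. Depth limits low ligands: counting any UMI as expression moved 20 of 44 shares of cells, and thinning moved 4.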

Other observations

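The 119 kept cells outside the sets also expressed ligands. Wnt5a was expressed in 42 of them, 13 from intestine, Wnt7b in 14, of which 11 came from lung, Wnt2 in 11 (7 from liver and 4 from lung) and Wnt6 in 9, of which 7 came from skin. Wnt4 was expressed in 7, Wnt3 and Wnt11 in 3 each, Wnt2b and Wnt10a in 2 each, and Wnt1 in 1, a cell from intestine.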
